A study of Mus musculus with 6 samples.

Results

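The genes of cone phototransduction were followed in RNA of the retinal pigment epithelium (RPE), the cell layer against which photoreceptor outer segments lie. They were chosen by name, as 10 genes that encode the visual pigments, arrestin, transducin subunits, phosphodiesterase subunits and channel subunits of cones. Of the 10, 9 had at least 1 probe set annotated to them alone, 13 probe sets in all, out of 18193 genes and 34945 such probe sets, and Cnga3 was not analysed here. The measured value used to pick among a gene's probe sets was the mean over all 6 arrays, the highest being taken, so levels are given as descriptions. The list was drawn up with a large difference of Opn1sw already known in these arrays, so its value is no independent evidence.

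All mice were BALB/c, an albino strain, and all were dark adapted for 1 week. The dark-adapted group (3 arrays) had no further exposure, and the light-damaged group (3 arrays) was put under fluorescent white light at 6000 lux, lasting 1.5 h, and RPE was collected 24 h later. The mice carry no further allele or agent named in the labels, and their age is not given in the sources used here. Whether a sample is 1 animal or a pool is also not given, so p-values reflect how far these samples vary, and that variation may be technical. Every difference is the light-damaged value minus the dark-adapted one, in log2 units, with the standard error of a limma fit that took the replicate number as a pair. A gene was called when its p, adjusted over the whole table, was under 0.05.

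In a cone, light isomerises the chromophore of a cone opsin, the opsin activates the cone form of the G protein transducin, and transducin releases the inhibition of phosphodiesterase 6, which breaks down cyclic GMP and so closes cyclic nucleotide-gated channels. Cone arrestin ends the signal by binding the activated pigment. Mouse retina is dominated by rods, which run the same cascade with their own paralogs, and most mouse cones can hold both the short- and the middle-wavelength opsin. Most of these are known as genes of photoreceptors and not of the RPE, and from which cells their signal in these samples came was not tested. In bulk RNA, fewer cells of a type and less RNA per cell cannot be told apart.

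Some markers of the labelled tissue were bright. The visual cycle isomerase gene Rpe65 and RPE retinal G protein-coupled receptor gene Rgr had mean log2 values of 14.38 and 14.18 in dark-adapted arrays. The RPE markers Stra6 and Best1 had 10.47 and 8.14, and the rod genes Gnat1 and Sag 14.53 and 14.46. Mean log2 values per dark-adapted array were 12.65 to 13.00 over 12 RPE markers and 12.60 to 13.29 over 9 rod genes. In both groups the array numbered 1 stood apart, with a difference between the 3′ and 5′ Gapdh control probe sets of 2.45 and 2.48 against 1.54 to 1.80 in the other 4 arrays. Array medians lay between 7.43 and 7.48. The median difference over all genes was -9.4e-05. 

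Promoter windows are shown for the called genes of the list that have a window in the RefSeq-based table. The other cone opsin is beside them. They are shown because these genes moved together or, for the opsins with the brighter Opn1sw probe set, by unequal amounts. Each run is the 250 bases before the annotated start on GRCm38.p6, written 5′ to 3′ on the gene's strand. Capitals mark any match, on either strand, to 3 motifs. The first is TAATCC, the core bound by OTX and CRX factors. The second is AGGTCA, a half-site of nuclear receptors. The last is TATAAA, the box of many core promoters.
Opn1sw, chr6:29380514-29380763, minus strand: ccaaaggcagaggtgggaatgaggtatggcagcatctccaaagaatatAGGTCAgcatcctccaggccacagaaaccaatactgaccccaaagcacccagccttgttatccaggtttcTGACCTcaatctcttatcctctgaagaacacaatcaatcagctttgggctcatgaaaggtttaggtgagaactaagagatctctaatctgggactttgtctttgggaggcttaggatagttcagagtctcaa
Opn1mw, chrX:74127216-74127465, plus strand: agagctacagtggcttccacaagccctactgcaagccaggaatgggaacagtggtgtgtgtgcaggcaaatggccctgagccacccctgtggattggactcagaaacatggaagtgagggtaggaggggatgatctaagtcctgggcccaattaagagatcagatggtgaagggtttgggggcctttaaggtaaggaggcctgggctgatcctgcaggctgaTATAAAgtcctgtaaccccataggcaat
Arr3, chrX:100605247-100605496, plus strand: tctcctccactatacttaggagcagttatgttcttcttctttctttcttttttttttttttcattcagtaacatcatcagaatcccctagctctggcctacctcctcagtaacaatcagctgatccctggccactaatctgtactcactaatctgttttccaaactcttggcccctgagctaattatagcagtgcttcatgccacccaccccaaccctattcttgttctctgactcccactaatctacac
Gnat2, chr3:108092816-108093065, plus strand: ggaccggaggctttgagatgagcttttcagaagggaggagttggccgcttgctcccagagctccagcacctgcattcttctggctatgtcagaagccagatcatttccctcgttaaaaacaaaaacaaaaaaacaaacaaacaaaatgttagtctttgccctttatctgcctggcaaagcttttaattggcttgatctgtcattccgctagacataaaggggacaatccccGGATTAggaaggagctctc
Of the 9 measured genes, 5 had a window in the table, and each motif was found in 1 of these. Gnat2 held TAATCC, in reverse orientation and 19 bases before the start, a motif found in 7.06% of all 32851 windows of 300 bases. Opn1sw held AGGTCA on both strands, 202 and 132 bases before the start, and 16.26% of all windows held it. Opn1mw held TATAAA 28 bases before the start, and 13.62% of all windows held it at any position on either strand. None of the 3 motifs was in the windows of Arr3 or Pde6h, which says only that these letters are absent there. The matches overlapped no other match. They are descriptions of sequence and carry no evidence of binding.

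Of the 9 cone genes measured, 4 fell and 1 rose in light-damaged RPE, and 4 did not pass. Over all genes 4.99% were called with pairing, 1.92% lower and 3.07% higher. The short-wavelength opsin Opn1sw, the cone arrestin Arr3, the cone transducin alpha subunit Gnat2 and the channel subunit Cngb3 were lower, whereas the transducin beta subunit Gnb3 was 2.15-fold higher. The light-damaged and dark-adapted arrays did not overlap for the same 5 genes, 4 lower and 1 higher, where 3.72% and 6.61% of all genes were so separated. The light-damaged array was the lower one in 3 of 3 pairs for 6 genes, as for 20.7% of all genes, and the higher one in 3 of 3 pairs for Gnb3 and Gngt2, as for 19.9%. The median difference of the 9 genes was -0.57, and it was -0.48, -0.84 and -0.26 in pairs 1, 2 and 3. The count of falls was 2, those of Opn1sw and Gnat2, when replicate 3 was left out. The number of genes called among all genes changed in the same settings, from 908 with all pairs (4.99%) to 1245 without replicate 1 (6.84%), 677 without replicate 2 (3.72%) and 228 without replicate 3 (1.25%). In each of the 6 genes with a difference below 0, pair 2 gave the deepest drop. Without the pairing none of the 9 passed in limma, where 0% of all genes were called lower and 0.0495% higher. In that fit 6 of the 9 had an unadjusted p under 0.05, against 5.94% of all genes.

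**Figure D1:**
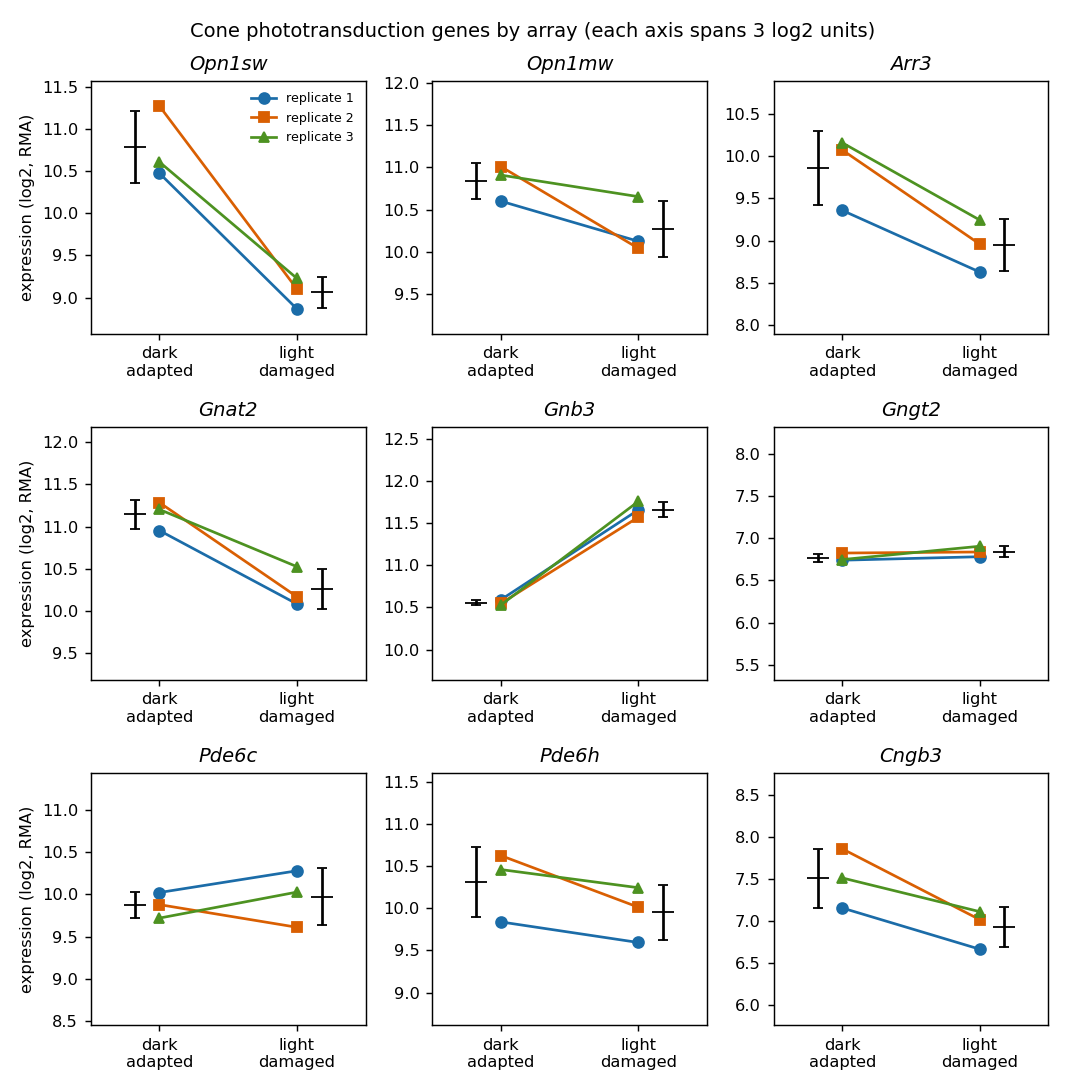
Log2 RMA expression of the 9 cone phototransduction genes in each array, with dark-adapted arrays left and light-damaged arrays right in each panel, lines joining arrays of one replicate number, and black bars giving the mean and SD of 3 arrays. Opn1sw went from 10.79 to 9.07 and Gnb3 from 10.56 to 11.66 on average, while Gngt2 stayed between 6.74 and 6.91.

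The pigments come first in the cascade. Opn1sw, the short-wavelength opsin, had log2 values of 10.48, 11.27 and 10.61 in dark-adapted replicates 1, 2 and 3. In light-damaged replicates 1, 2 and 3 they were 8.87, 9.10 and 9.23. Every light-damaged array thus lay over 1 log2 unit below every dark-adapted one. The gene fell by 1.72 (-1.72 ± 0.15), to 30.3% of its dark-adapted level (limma adjusted p = 0.0041 with pairing and 0.0983 without). A second probe set for Opn1sw, annotated to the same sequence record but much dimmer, had a difference of -0.59 ± 0.15 (limma adjusted p = 0.0957 over all probe sets), and its groups also did not overlap. Its pair differences were -0.14, -0.91 and -0.73. With the mean of both probe sets in place of the brighter one, the difference was -1.16.

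Opn1mw, the middle-wavelength opsin, had values of 10.60, 11.01 and 10.91 in dark-adapted replicates 1, 2 and 3. The light-damaged values were 10.12, 10.04 and 10.65, and replicate 3 of the light-damaged group lay above replicate 1 of the dark-adapted group. Its difference of -0.57 ± 0.14 did not pass (limma adjusted p = 0.0869), with a 95% interval of -0.91 to -0.22 that is not adjusted for the number of genes. Within an array, the log2 value of Opn1sw minus that of Opn1mw went from -0.05 ± 0.29 (SD, n = 3) to -1.21 ± 0.25. The change was -1.13, -1.20 and -1.13 in pairs 1, 2 and 3. With this brighter Opn1sw probe set, the Opn1sw signal thus dropped more than that of Opn1mw, by nearly the same amount in each pair. The exact two-sided permutation p, from a test that ignored the replicate pairs, was 0.10, the smallest that 3 arrays against 3 allow. Adjusted over the 4 gene pairs compared in this way, all chosen after their values were seen, it was 0.10. With the mean of both Opn1sw probe sets this change was -0.59. The dimmer Opn1sw probe set alone had a difference of -0.59, close to the -0.57 of Opn1mw. Its pair differences were -0.14, -0.91 and -0.73, against -0.48, -0.97 and -0.26 for Opn1mw. A larger mean drop of Opn1sw was thus not seen with the dimmer probe set, though its drop was the larger in pair 3. Its light-damaged values were 6.11, 5.92 and 5.74, under the array medians of 7.43 to 7.48. Whether so dim a signal could show a larger drop was not tested.

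Cone arrestin, Arr3, had values of 9.36, 10.07 and 10.16 in the dark-adapted arrays and 8.63, 8.96 and 9.24 in the light-damaged ones. The groups were apart by a small margin, since the highest light-damaged value lay just under the lowest dark-adapted one, which was that of replicate 1. Arr3 fell by 0.92 (-0.92 ± 0.10), to 52.8% (limma adjusted p = 0.0079 with pairing, 0.51 without pairing and 0.0502 in the paired fit without replicate 3). This value is from a probe set made to bind several transcripts of the gene. The other 2 probe sets of Arr3 gave -0.28 ± 0.09 and -0.73 ± 0.16 (limma adjusted p = 0.18 and 0.0594 over all probe sets). In both the groups did not overlap. The -0.28 is from the only Arr3 probe set without a suffix that marks probes shared between transcripts, and the -0.73 is from one with such a suffix.

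**Figure D2:**
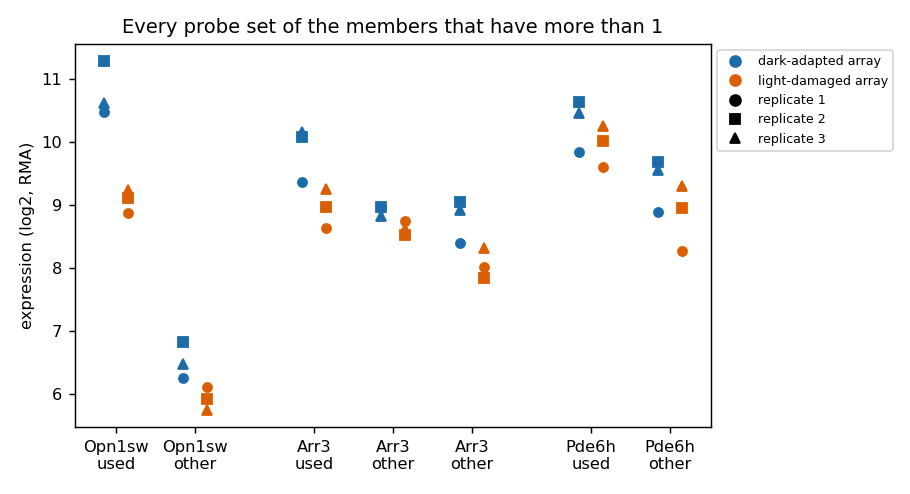
Log2 RMA expression in each array for every probe set of Opn1sw, Arr3 and Pde6h, the 3 genes with more than 1, with blue for dark-adapted and orange for light-damaged arrays and a marker shape per replicate. Differences of the probe sets not used were -0.59 for Opn1sw, -0.28 and -0.73 for Arr3 and -0.53 for Pde6h.

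The 3 subunits of cone transducin did not change alike, since Gnat2 fell, Gnb3 rose and the dim Gngt2 did not pass. Gnat2, the alpha subunit that carries the signal from opsin to phosphodiesterase, had values of 10.95, 11.28 and 11.20 in dark-adapted and 10.08, 10.17 and 10.52 in light-damaged arrays. It fell by 0.89 (-0.89 ± 0.11), to 54.0% (limma adjusted p = 0.0101 with pairing and 0.19 without), with separate groups and pair differences of -0.87, -1.12 and -0.68.

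Gnb3, the beta subunit, which ON bipolar cells of the retina also use, had values of 10.59, 10.55 and 10.53 in dark-adapted arrays. In light-damaged arrays they were 11.66, 11.57 and 11.76. Arrays of a group lay close together, with SDs of 0.03 and 0.09, and the groups were far apart. Gnb3 rose by 1.11 ± 0.09, or 2.15-fold (limma adjusted p = 0.0031 with pairing and 0.0566 without), and the pairs gave 1.07, 1.02 and 1.23. It has a single probe set, so no second measurement was at hand.  All of the 7 bipolar cell markers measured had a difference below 0, as did 50.1% of all genes. None of these markers passed, with a range of -0.55 to -0.13 (2 passed without replicate 1). The summed signal of these markers was 9642 to 12115 in dark-adapted and 7235 to 9176 in light-damaged arrays, and the part of these cells in the Gnb3 difference was not tested. Gnb3 minus Gnat2 within an array went from -0.59 ± 0.20 (SD, n = 3) to 1.40 ± 0.17 (exact two-sided permutation p = 0.10). The groups of each gene were already separate, in opposite directions, so this p was fixed in advance and adds no evidence.

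Gngt2, the gamma subunit, was dim, with values of 6.74, 6.82 and 6.75 against 6.78, 6.84 and 6.91. All lay under the array medians of 7.43 to 7.48, and whether so dim a signal could show a change was not tested. The Gngt2 difference of 0.07 ± 0.09 did not pass (limma adjusted p = 0.75), and the 95% interval ran from -0.14 to 0.28.

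The effector enzyme gave values on both sides of 0. Pde6c, the catalytic subunit of cone phosphodiesterase, had values of 10.02, 9.88 and 9.72 in dark-adapted and 10.28, 9.61 and 10.03 in light-damaged arrays. The groups overlapped, pair 2 was lower and pairs 1 and 3 were higher. The difference was 0.10 ± 0.13 (limma adjusted p = 0.77), with a 95% interval of -0.22 to 0.42 that leaves out a drop of the size seen for Gnat2 or Arr3. Pde6h, the inhibitory gamma subunit, had values of 9.84, 10.63 and 10.46 against 9.59, 10.01 and 10.24. The groups overlapped, and its difference of -0.36 ± 0.11 did not pass (limma adjusted p = 0.14), nor did that of its second probe set, -0.53 ± 0.11 (limma adjusted p = 0.0584 over all probe sets).

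Cngb3, a subunit of the cone cyclic nucleotide-gated channel, had values of 7.16, 7.86 and 7.51 in dark-adapted arrays and 6.67, 7.02 and 7.11 in light-damaged ones. The groups were separate by the least margin of the 5 called genes. Cngb3 fell by 0.58 (-0.58 ± 0.11), to 67.1%, close to the threshold (limma adjusted p = 0.0401 with pairing and 0.76 without). The call was lost with a pseudocount of 16 (limma adjusted p = 0.0540) and without replicate 2 or replicate 3 (limma adjusted p = 0.12 and 0.11). Cngb3 was also dim, with a light-damaged mean of 6.93 against array medians of 7.43 to 7.48. It was not tested in the setting without the 40% dimmest genes, where 3 cone genes fell.

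Rods use paralogs of the same proteins, and 9 of the 10 rod counterparts listed were analysed here. The median difference was -0.53, every one of the 9 lay below 0, and 3 fell, namely the inhibitory phosphodiesterase subunit Pde6g (-0.61 ± 0.12), the catalytic subunit Pde6b (-0.55 ± 0.11) and the transducin gamma subunit Gngt1 (-0.53 ± 0.10), with limma adjusted p-values of 0.0378, 0.0486 and 0.0393. The channel subunits Cnga1 and Cngb1 had differences of -0.87 and -0.61, the catalytic subunit Pde6a -0.48, the transducin subunits Gnb1 and Gnat1 -0.38 and -0.25, and rod arrestin Sag -0.10, none of which passed. Over all genes, 1.92% were called lower and 50.1% had a difference below 0. A second bright probe set of Gnb1 did pass, at -0.76 (limma adjusted p = 0.0332 over all probe sets), while the other, a dim one, gave 0.01. The second probe set of Pde6g gave -0.80, and the other 3 of Gngt1 gave -0.63, -0.34 and -0.55. The rod list gave 1, 0 and 1 calls without replicates 1, 2 and 3 in turn, 1 with quantile normalization, 1 with probe sets that have no shared-transcript suffix, and 4 with median centring. Beside these, the cone genes ran over a wider range, from -1.72 to 1.11 against -0.87 to -0.10, which is a description of both lists and was not tested. Gnat2 minus Gnat1 within an array went from -3.39 ± 0.03 (SD, n = 3) to -4.02 ± 0.12, a change of -0.57, -0.79 and -0.56 in the pairs. Arr3 minus Sag went from -4.60 ± 0.38 to -5.42 ± 0.19, a change of -0.60, -0.90 and -0.97. In both the groups did not overlap (exact two-sided permutation p = 0.10 each, the smallest possible). In dark-adapted arrays Gnat1 and Sag had mean log2 values of 14.53 and 14.46, and Gnat2 and Arr3 11.15 and 9.86. Whether signals as bright as those of Gnat1 and Sag were compressed was not tested, which limits both comparisons. With the Arr3 probe set that has no shared-transcript suffix the change of Arr3 minus Sag was -0.18. The summed signal of the rod list was 86978 to 119874 in dark-adapted and 64280 to 100833 in light-damaged arrays. These ranges overlapped, but within pairs 1, 2 and 3 the sum was lower in the light-damaged array, at 64280 against 86978, 86023 against 119874 and 100833 against 113688. Its part in the cone differences was not tested.

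**Figure D3:**
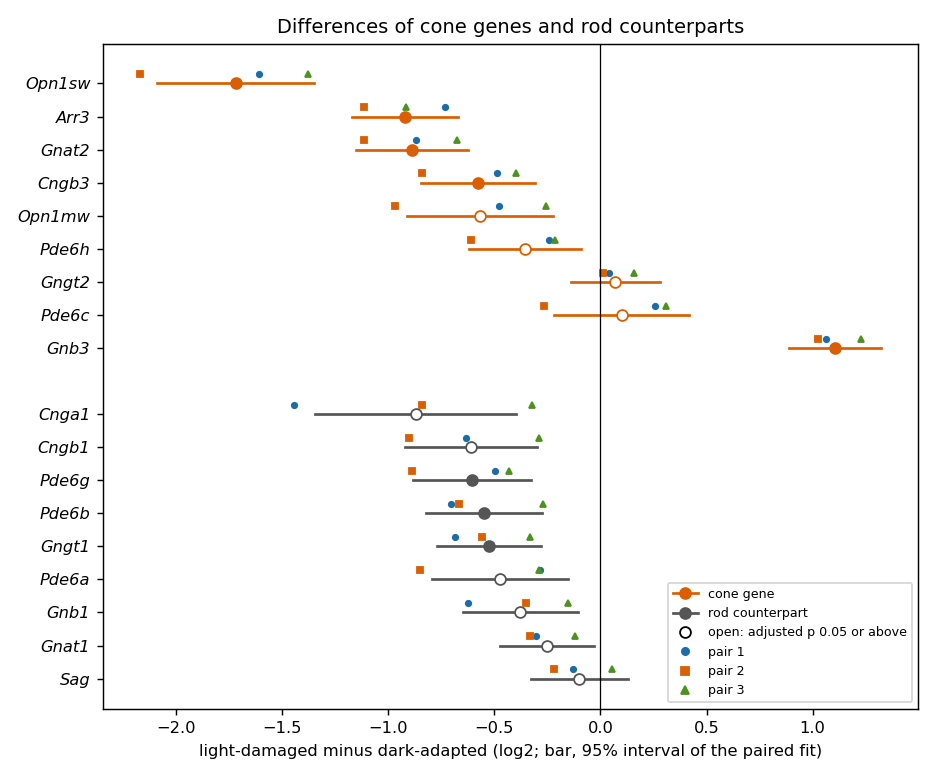
Light-damaged minus dark-adapted difference on the log2 scale for 9 cone genes (orange) and 9 rod counterparts (grey), with 95% intervals from the paired limma fit, filled points at an adjusted p under 0.05 and small markers for the 3 pairs. Cone genes reach from -1.72 (Opn1sw) to 1.11 (Gnb3) and rod counterparts from -0.87 (Cnga1) to -0.10 (Sag).

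Genes that regulate both cascades or recycle their pigment were analysed for 17 of 21 listed. Of these, 4 fell and none rose, where 1.92% and 3.07% of all genes did, and the median difference was -0.28. The retinol dehydrogenase Rdh12, which reduces the spent chromophore, fell by 0.93, the rod exchanger Slc24a1 by 0.72 and the retinoid transporter Abca4 by 0.56, with limma adjusted p-values of 0.0190, 0.0269 and 0.0346. Slc24a2, the exchanger of cones, had a difference of -0.18 (limma adjusted p = 0.42). Of 11 photoreceptor transcription factors, 5 fell and none rose, with a median of -0.39. Rorb, which acts on the Opn1sw gene, fell by 0.85, the SUMO ligase Pias3 by 0.58 and the rod factor Nrl by 0.67 (limma adjusted p = 0.0179, 0.0243 and 0.0261). The cone receptors Thrb and Rxrg, which set the choice of opsin, had differences of -0.15 and 0.11 (limma adjusted p = 0.45 and 0.61). Without replicates 1, 2 and 3 in turn the regulators gave 4, 2 and 2 calls and the transcription factors 3, 1 and 0. Without pairing no gene of these lists or of the rod list passed.

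Markers of other cells were set beside these values. Over all genes 1.92% were called lower, 3.07% were called higher, and 50.1% had a difference below 0. Of 12 RPE markers 4 fell and none rose, all 12 had a difference below 0, and the median was -0.54. Their summed signal was 125951 to 157996 in dark-adapted and 86525 to 119436 in light-damaged arrays, without overlap. Of 12 myeloid markers 11 rose, 0 fell and the median was 0.93, with a summed signal of 19472 to 27299 against 27317 to 40382. Of 7 Müller glia markers the filament genes Vim and Gfap rose, by 1.28 and 0.74, and the other 5 did not pass. Their summed signal was 23168 to 29112 against 25414 to 32585. Of 10 markers of amacrine, horizontal and ganglion cells none passed, with a median of -0.24 and a summed signal of 9377 to 11468 against 6488 to 11591. Without replicates 1, 2 and 3 in turn there were 4, 6 and 0 calls among RPE markers, 11, 7 and 7 among myeloid, 2, 2 and 1 among Müller glia and 0, 0 and 1 among amacrine, horizontal and ganglion cell markers. Without pairing none of these markers passed. No list had a summed signal near 0, but this does not show that its cells were present. Even the dim marker Lhx1 had a mean log2 value of 5.70 in dark-adapted arrays. The part of these other cells in the cone gene differences was not tested.

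**Figure D4:**
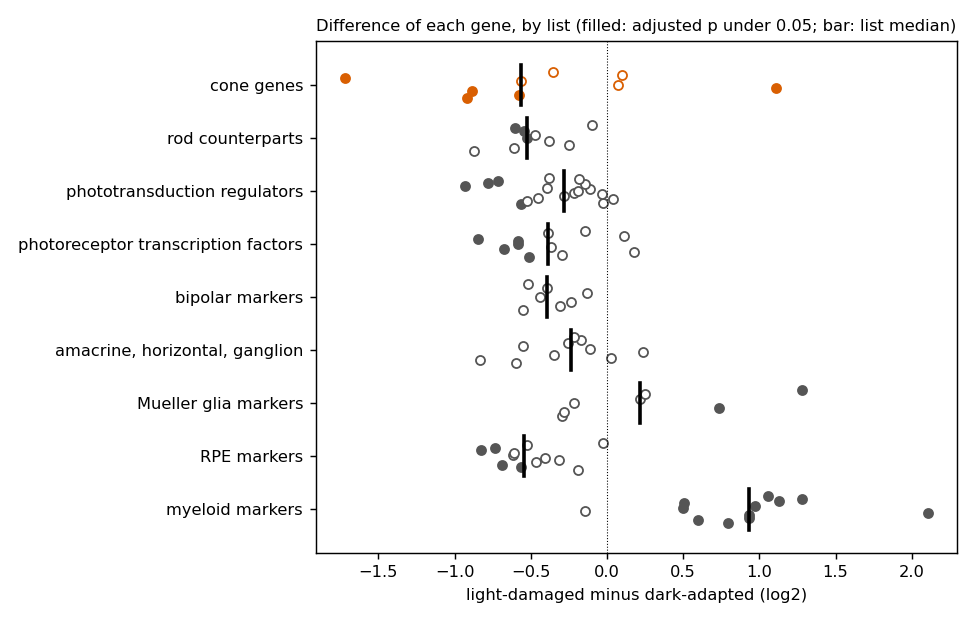
Light-damaged minus dark-adapted difference (log2) of each gene, by list, with filled points at an adjusted p under 0.05 and a bar at each list's median. The medians were -0.57 for cone genes, -0.53 for rod counterparts, -0.54 for RPE markers and 0.93 for myeloid markers.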

How the data were processed

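Total RNA of RPE, labelled with biotin, was measured on 6 Affymetrix arrays. The deposited values are log2 expression per probe set, made by the authors with RMA per the submitters' processing notes. Neither its version nor which arrays were normalized together is given in the sources used here. The log2 unit was read from the values. Of 45101 probe sets, 64 were controls and 34945 had exactly 1 gene symbol in the 2016 platform annotation. Each gene was represented by its brightest probe set.

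Groups were compared in limma 3.58.1 (R 4.3.3), two-sided, with Benjamini-Hochberg adjustment over 18193 genes and replicate number as a block (2 residual degrees of freedom). The pairing was part of the rule that defined the gene set. The labels do not say what a replicate number marks, and every cone gene call depends on it. Same-numbered arrays' deviations from group means correlated at 0.89, 0.62 and 0.86 across genes, and replicates 2 and 3 also correlated crosswise (0.65 and 0.61), so their pairing is unsure. The fit was tested on simulated data in which the pairing was built in. That test cannot show whether a replicate number marks a true pair. The members and lists were chosen with earlier results of these data known. Named were all members, all rod counterparts, up to 3 genes of other lists by smallest p, and the 5 genes most like Opn1sw or the member mean over the arrays (clone names and SD under 0.3 left out). Other genes were named after their values were seen. The 4 within-array comparisons were added after seeing the data and tested by exact permutation over 20 assignments, without regard to the pairs. Alternatives covered pairing, normalization, dim genes, a pseudocount of 16, probe set choice, eBayes settings and leaving out replicates.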

Additional observations from a re-analysis of the deposited data

How the results depend on the processing

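Without the replicate block, 0 cone genes were called in either direction, and 0 genes of the other lists. Opn1sw (-1.72), Arr3 (-0.92), Gnat2 (-0.89), Cngb3 (-0.58) and Gnb3 (1.11) kept their differences and lost their calls in that unpaired fit, where larger standard errors apply. In the paired fit, leaving out 1 array amounts to leaving out its pair, which leaves 1 residual degree of freedom. Without 1 replicate number the count of falls was 2 to 4 (2 without replicate 3), that of rises 1 in each case, and that of the other lists 12 to 27 against 29 with all pairs, while all genes gave 228 to 1245 against 908. Over these settings Arr3 ranged from -1.02 to -0.82, with a limma adjusted p of 0.0502 without replicate 3, and Cngb3 from -0.66 to -0.44. Arr3 gave -0.28 with the probe set that has no shared-transcript suffix, and Cngb3 gave -0.52 with a pseudocount of 16, both no longer called. The cause was not tested. Opn1sw, Gnat2 and Gnb3 stayed called in every other alternative run, and Opn1mw, Pde6c, Pde6h and Gngt2 passed in none. The limma adjusted p of Opn1mw ranged from 0.0793 to 0.74. The 13 alternatives put the median of the cone genes between -0.66 and -0.36. Precision is limited by the number of arrays. Photoreceptor transcription factors gave 3 calls against 5 with the eBayes trend and with the pseudocount, and RPE markers 2 against 4 with the mean of all probe sets. The rod list gave 2 against 3 with the pseudocount and with every probe set tested. Bipolar markers gave 1 call with median centring and without dim genes, and amacrine, horizontal and ganglion cell markers 1 in these settings and with the mean of all probe sets.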

Other observations

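The genes whose log2 values over the 6 arrays were most like those of Opn1sw, among 5994 with an SD of at least 0.3, were the mitochondrial creatine kinase gene Ckmt1 (Pearson r = 0.994), Polg2 (0.979), Plpp2 (0.978), the neuroendocrine transcription factor Insm1 (0.976) and the potassium channel subunit Kcne2 (0.974). All 5 were called lower, as were 1.92% of all genes, with differences of -0.77, -1.14, -0.85, -0.99 and -1.42. They were picked for following Opn1sw over these same arrays, so this direction comes from the choice and is no separate result. For the mean of the 9 cone genes, the closest were Plekhd1 (0.993), the synaptic scaffold gene Rims2 (0.993), the rod gene Pde6g (0.993), Apela (0.992) and Tigar (0.991), of which Rims2 and Pde6g were called lower. These correlations rest on 6 arrays that share the group difference and the replicate 1 shift, and are descriptions only.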
